A study of Mus musculus with 14 samples.

Results

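The 7 genes described here, Best1, Clcn2, Cftr, Kcnj13, Slc12a2, Atp1b1 and Aqp1, encode proteins that move chloride, potassium, sodium and water across the retinal pigment epithelium (RPE). They were chosen by name for their known roles in epithelial transport, with earlier results of these data known. All 7 were found among the 42687 genes of the count table. RNAseq was done on RPE cells from 14 male mice at 3 months of age, all C57BL/6J, with both eyes of a mouse in 1 library. The knockout (KO) mice were Best1-Cre+/-; Clic4f/f, in which a Cre driven by the RPE promoter of Best1 removes floxed Clic4, and each of the 3 sets had its own KO mice. The WT set held 3 KO and 3 wild-type mice, the Ctrl set 2 KO and 2 Clic4f/f mice without Cre, and the CreCtrl set 2 KO and 2 Best1-Cre+/- mice without the floxed alleles. All 7 KO mice carry the same genotype label, and the set of each was read from the style of its title and the prefix of its library name, on which every comparison within a set rests. The control genotype and the set go together, so that differences between sets and between control genotypes cannot be told apart. The Cre acts only in cells where the Best1 promoter is active, and any other cell in the preparation keeps Clic4. Best1 is therefore both a gene measured here and the source of the promoter of the transgene, and whether reads from the transgene could be counted on Best1 was not tested.

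The RPE is a single sheet of polarized cells between the photoreceptors and the choroid that moves fluid and salt out of the subretinal space. The sodium pump sits in its apical membrane, unlike in most epithelia, and sets the gradients that the other carriers use. Apical potassium channels recycle the potassium brought in by the pump, an apical sodium-potassium-chloride cotransporter loads the cell with chloride, chloride channels let it out, and water follows partly through aquaporins. Clic4, the deleted gene, belongs to a family named as chloride intracellular channels, and whether its product acts as a channel is debated.

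The sequences just before the starts of Best1, Kcnj13 and Atp1b1 are shown first, because the levels of Kcnj13 and Atp1b1 ran more nearly in parallel over the libraries than those of any other pair of the 7 genes while Best1 ran opposite to them, and because the promoter of Best1 is the one used to drive Cre. Each holds the 250 bases before the annotated start in RefSeq (GRCm38.p6, minus strand, written 5′ to 3′). Those of Kcnj13, Atp1b1 and Best1 lie at chr1:87394730-87394979, chr1:164458356-164458605 and chr19:10001634-10001883.
Kcnj13: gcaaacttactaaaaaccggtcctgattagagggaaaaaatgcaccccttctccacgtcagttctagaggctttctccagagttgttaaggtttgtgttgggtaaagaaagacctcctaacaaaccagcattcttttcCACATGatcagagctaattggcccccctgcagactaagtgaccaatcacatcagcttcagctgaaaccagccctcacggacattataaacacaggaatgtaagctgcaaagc
Atp1b1: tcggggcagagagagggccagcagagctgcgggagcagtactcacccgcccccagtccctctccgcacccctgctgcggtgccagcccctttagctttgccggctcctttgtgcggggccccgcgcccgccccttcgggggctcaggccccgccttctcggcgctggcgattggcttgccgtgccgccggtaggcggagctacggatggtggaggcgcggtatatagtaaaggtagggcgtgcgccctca
Best1: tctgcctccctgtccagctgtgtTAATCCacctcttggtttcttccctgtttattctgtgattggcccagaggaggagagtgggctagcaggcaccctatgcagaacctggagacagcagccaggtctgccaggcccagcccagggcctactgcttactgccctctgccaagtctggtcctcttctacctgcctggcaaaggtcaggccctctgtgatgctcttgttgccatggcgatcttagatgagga
Capitals mark a match on either strand to CATGTG or CACGTG, the letters bound by MITF, or to TAATCC, the letters bound by OTX2, both being transcription factors of the RPE. Kcnj13 holds the reverse complement of CATGTG, at bases 139 to 144 of its window, and Best1 holds TAATCC at bases 24 to 29. Atp1b1 holds none of the 3 in this window, and neither do Aqp1, Cftr and Clcn2, so that 2 of the 6 windows searched hold a match. Of all 32851 windows of this length in the RefSeq table, 12.3% hold CATGTG, 6.02% CACGTG and 6.25% TAATCC on either strand, and 22.9% hold at least 1 of the 3. A match is a stretch of letters and says nothing of binding.

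Libraries held 9828293 to 32384166 counts. Clic4 was lower in every KO library than in every control library of its set, with log2 fold changes, given with their standard errors (SE), of -3.32 (SE 0.22, adjusted p = 3.33e-05), -1.61 (SE 0.58, adjusted p = 0.333) and -2.16 (SE 0.36, adjusted p = 0.0132) for the WT, Ctrl and CreCtrl sets. These and all p-values that follow come from the quasi-likelihood test of edgeR unless DESeq2 is named, adjusted over all genes by the method of Benjamini and Hochberg, and a gene was called changed at an adjusted p under 0.05. All 10 RPE markers, among them Rpe65, Rlbp1 and Lrat of the visual cycle, had at least 1 CPM (a count scaled to the depth of its library) in every library. Their summed level, scaled over the 14 libraries, was 15506 to 23252 CPM in WT, 47069 to 49013 in Ctrl, 50150 to 58134 in CreCtrl and 72305 to 82666 in the 7 KO libraries. Of the 9 fibroblast markers, such as Dcn and Col1a1, none was at 0 throughout a group, and they summed to 7396 to 7514 CPM in WT, 1219 to 2344 in Ctrl, 1291 to 2623 in CreCtrl and 123 to 732 in KO libraries. The 8 endothelial markers summed to 108 to 526 CPM in control and 34.9 to 147 in KO libraries. KO and control libraries thus differed in these markers as well as in Clic4, and the WT libraries stood farthest from the KO libraries. On the same scale Clic4 had means of 224.5, 66.7 and 97.1 CPM in WT, Ctrl and CreCtrl. In their KO libraries the means were 24.8, 21.8 and 22.1 CPM. The sets thus differed in the Clic4 level of their controls more than in that of their KO libraries.

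**Figure D1:**
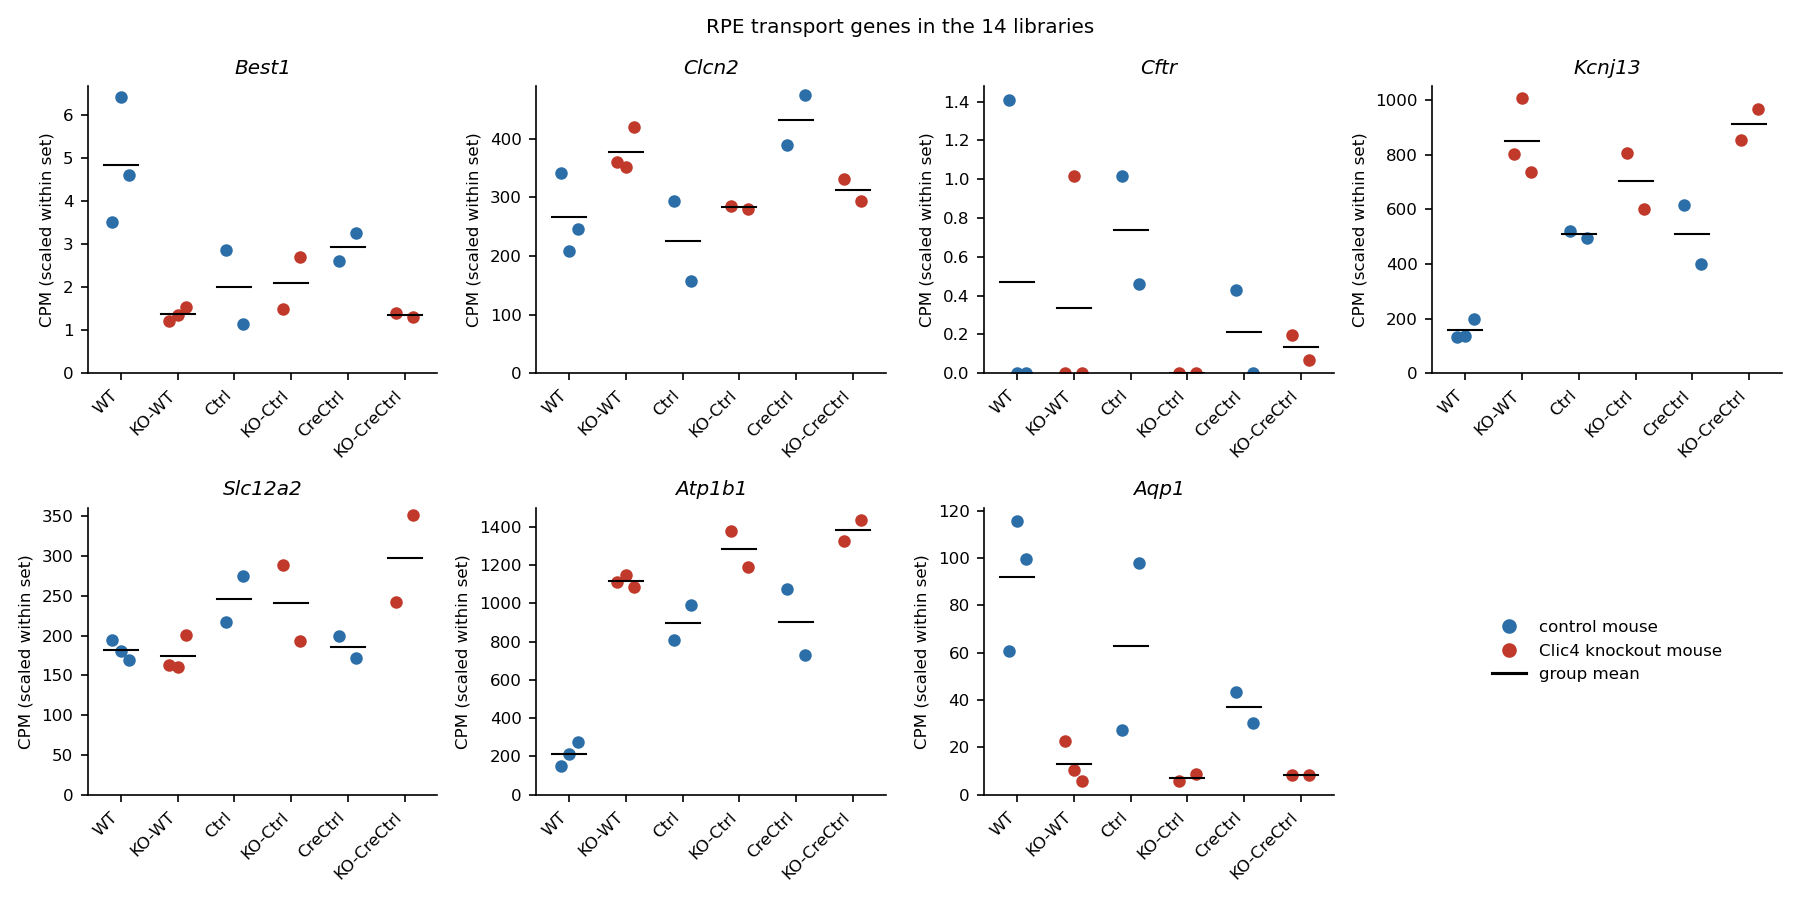
Level of each of the 7 transport genes in every library, in CPM scaled within its set (vertical axis, linear from 0), for the 6 groups of mice. Points are mice, blue for controls and red for KO, and lines are group means. Kcnj13 and Atp1b1 are lowest in the 3 WT mice, and Aqp1 is lower in all KO mice than in the controls of their set.

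Compared per length, in mean CPM per kilobase of exon, Kcnj13 was the highest of the 7 genes in every group, from 114 in WT to 732 in KO mice of the CreCtrl set. Atp1b1 was second in every group by its mean, from 63.4 to 457, and Clcn2 next, from 38.8 to 71.4. These places are not settled everywhere, since the ranges of Kcnj13 and Atp1b1 overlapped in CreCtrl, those of Atp1b1 and Clcn2 in WT, and those of Clcn2 and Aqp1 in WT (32.1 to 52.9 and 21.5 to 40.9) and Ctrl (27.2 to 50.4 and 10.7 to 39.0). Slc12a2 (15.3 to 27.7) and Aqp1 (2.88 to 32.3) held the fourth and the fifth place, with Aqp1 above Slc12a2 in WT and Ctrl and below it in CreCtrl and in all 3 KO groups. The ranges of these 2 overlapped in Ctrl and in CreCtrl, so that their order is not settled there. Best1 was sixth in every group, from 0.536 to 1.73, and Cftr last, from 0 to 0.0989.

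In the WT set, 3 of the 6 genes tested were called, Kcnj13 and Atp1b1 higher and Aqp1 lower in KO, where 35.1% of all 15428 genes tested were called, 16.1% higher and 19.0% lower. Cftr had too few counts to be tested. In the CreCtrl set 1 of 6 was called, Aqp1 lower, beside 15.8% of all genes (3.60% higher and 12.2% lower). In the Ctrl set 0 of 6 was called, beside 0% of all 15287 genes, while 1 of the 6 (Aqp1) and 1846 of all genes had an unadjusted p under 0.05. DESeq2 called 5, 1 and 5 of the 6 genes in the WT, Ctrl and CreCtrl sets, beside 38.1%, 7.27% and 25.7% of all genes with an adjusted p (1111 genes in the Ctrl set). Over all 14 libraries with the set as a term, 4 of 6 were called (Kcnj13 and Atp1b1 higher, Aqp1 and Best1 lower), beside 40.6% of all 14925 genes (21.0% higher and 19.6% lower). So many genes were called in the WT set and over all sets that a share of this size does not single out these genes.

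Kcnj13 (ENSMUSG00000079436, chromosome 1, 87386363 to 87394729, minus strand) encodes the inwardly rectifying potassium channel of the apical RPE membrane. It had 133, 137 and 199 CPM in the 3 WT libraries and 805, 1009 and 737 CPM in the 3 KO libraries of that set. The groups lay far apart, with means of 157 ± 37.1 and 850 ± 141 CPM (SD, n = 3 each), and Kcnj13 rose by a log2 fold change of 2.44 (SE 0.20, adjusted p = 6.83e-05 by edgeR), which is 5.42-fold. The Ctrl set had 521 and 495 CPM in Ctrl and 808 and 600 CPM in KO libraries. The KO libraries again lay above the controls, but the log2 fold change of 0.47 (SE 0.26, adjusted p = 0.633 by edgeR) did not pass, and its 95% interval ran from -0.19 to 1.12. Levels in the CreCtrl set were 617 and 402 CPM in CreCtrl and 854 and 968 CPM in KO libraries. The log2 fold change of 0.84 (SE 0.25, 95% interval 0.26 to 1.42) had an adjusted p of 0.0572 by edgeR, which passed with DESeq2 (0.85, adjusted p = 0.00218) and without CreCtrl replicate 1 (1.18, adjusted p = 0.00455 by edgeR). KO libraries thus lay above the controls of their own set in all 3 sets, by a call in the WT set only. Of its 1270 exon bases, 623 overlap exons of Gigyf2 on the other strand, and the strand setting of the counting is not given in the sources used here. Gigyf2 had 53.8 ± 6.76 CPM in WT and 49.7 ± 5.91 CPM in KO libraries (SD, n = 3 each).

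In tissue samples like these, fewer cells of a type and less RNA per cell cannot be told apart, and a change in other cells of the sample moves every gene's share of the counts. Beside Kcnj13, all 10 RPE markers were called higher in KO in the WT set, with a median log2 fold change of 1.59, and the medians were 0.58 in the Ctrl set (0 called) and 0.65 in the CreCtrl set (1 higher and 1 lower). Scaling the libraries to the summed RPE markers, an alternative chosen after the data were seen, gave Kcnj13 a log2 fold change of 0.57 (adjusted p = 0.0139 by edgeR) for the WT set, -0.14 (0.71) for the Ctrl set and 0.41 (0.128) for CreCtrl. Most of that sum came from Ttr and Rgr, with means of 37784 and 16253 CPM in the KO libraries of the WT set, beside 228 CPM for Pmel. Single markers had log2 fold changes from 0.86 (Tyrp1) to 2.71 (Lrat) in that set, and scaling to each marker alone was not tested. Per 1000 reads on the RPE markers, Kcnj13 had 6.88 to 8.01 reads in WT and 9.96 to 12.6 in their KO libraries, but 10.6 and 11.5 in Ctrl against 8.28 and 11.6 in their KO libraries. Relative to the sum of these markers, Kcnj13 therefore kept its direction in the WT and CreCtrl sets and not in the Ctrl set.

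Atp1b1 (ENSMUSG00000026576, chromosome 1, 164437109 to 164458355, minus strand) encodes a beta subunit of the sodium pump, which brings the catalytic alpha subunit to the membrane. It had 150, 212 and 275 CPM in the WT libraries and 1112, 1149 and 1085 CPM in their KO libraries. Every KO library held about the same level, and Atp1b1 rose by a log2 fold change of 2.39 (SE 0.21, adjusted p = 9.42e-05 by edgeR), which is 5.25-fold. Levels in the Ctrl set were 806 and 993 CPM in Ctrl and 1379 and 1192 CPM in KO libraries, a log2 fold change of 0.51 (SE 0.27, adjusted p = 0.592 by edgeR). The CreCtrl set showed 1077 and 730 CPM in CreCtrl and 1326 and 1436 CPM in KO libraries, a log2 fold change of 0.61 (SE 0.24, adjusted p = 0.107 by edgeR), with an adjusted p of 0.0212 with DESeq2 and 0.00863 without CreCtrl replicate 1. The KO libraries lay above the controls in each set, as for Kcnj13. Scaled to the RPE markers, the log2 fold changes were 0.54 (adjusted p = 0.0123 by edgeR), -0.10 (0.794) and 0.18 (0.44) in the WT, Ctrl and CreCtrl sets. Exons of Nme7 on the other strand overlap 575 of its 3081 exon bases, and Nme7 had 10.5 ± 1.96 CPM in WT and 13.7 ± 3.82 CPM in KO libraries (SD, n = 3 each).

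The other beta subunits of the pump did not move as a block with Atp1b1. In the WT set Atp1b2 rose by 1.45 on the log2 scale (adjusted p = 0.000108 by edgeR). Atp1b3, also a beta subunit, fell by 1.15 (adjusted p = 0.00591 by edgeR) in the same libraries. Neither of these passed in the other sets, where Atp1b2 had log2 fold changes of 0.46 and 0.45, and Atp1b3 of -1.90 (adjusted p = 0.106 by edgeR) and 0.10, in the Ctrl and CreCtrl sets. Under scaling by library size alone the CreCtrl value of Atp1b3 was -0.12. Of the FXYD proteins, small regulators of the pump, Fxyd1, Fxyd5 and Fxyd6 were lower in KO in both the WT set (log2 fold changes -2.81, -3.68 and -4.17) and the CreCtrl set (-1.72, -3.92 and -3.20). In the Ctrl set they had -2.10, 0.11 and -2.68, without a call. The CreCtrl call of Fxyd1 was lost without CreCtrl replicate 2 or KO-CreCtrl replicate 2 (adjusted p = 0.0531 and 0.0576 by edgeR).

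**Figure D2:**
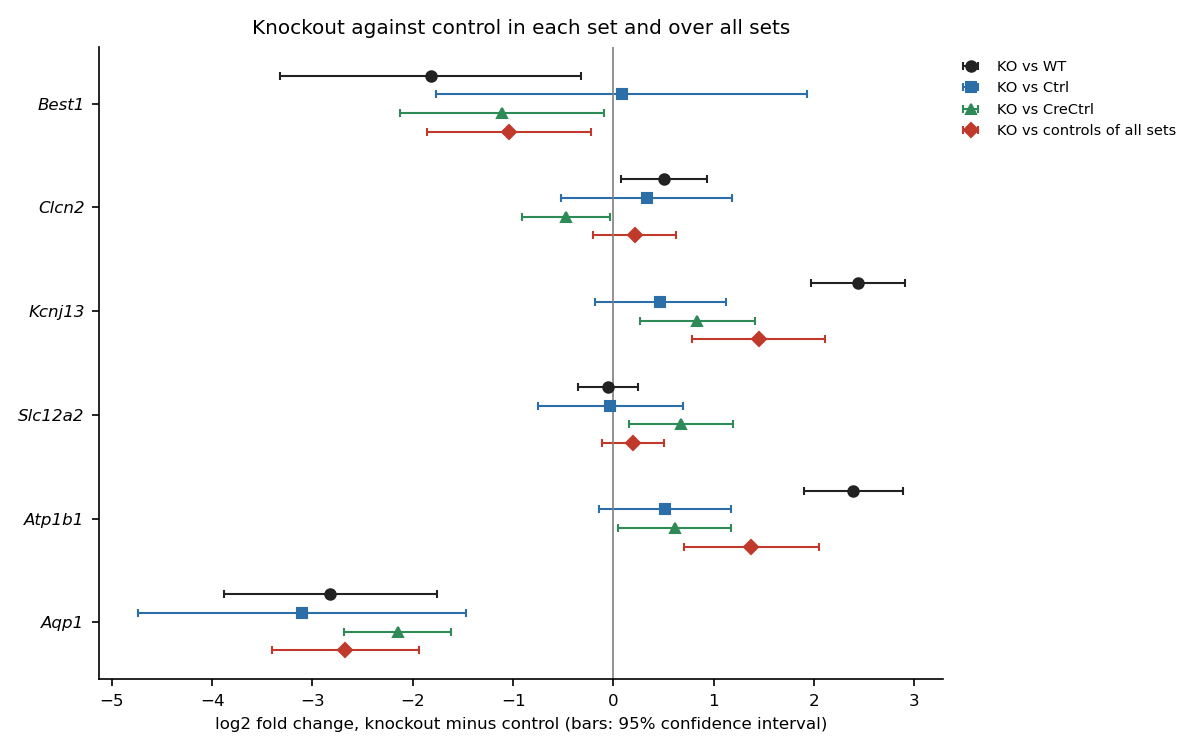
Log2 fold change of KO minus control (horizontal axis) with its 95% confidence interval for the 6 transport genes with enough counts to be tested, in each set and over all 14 libraries with the set as a term. Aqp1 lies below 0 in all 4 comparisons, from -3.11 to -2.15, Kcnj13 and Atp1b1 lie above 0 and farthest from it in the WT set, and Clcn2 lies on opposite sides of 0 in the WT and CreCtrl sets.

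Best1 (ENSMUSG00000037418, chromosome 19, 9985174 to 10001633, minus strand) encodes bestrophin, a calcium-activated anion channel of the basolateral RPE membrane whose mutations cause Best disease. It was counted only 18 to 69 times in a library, so that its values carry a large counting error. It had 3.52, 6.41 and 4.60 CPM in WT and 1.20, 1.35 and 1.54 CPM in their KO libraries, or 40, 69 and 61 against 18, 20 and 23 counts. The groups did not overlap, but the log2 fold change of -1.82 (SE 0.66, adjusted p = 0.0616 by edgeR) missed the threshold, and passed with DESeq2 (-1.83, adjusted p = 0.0185), with library size alone (-2.07, adjusted p = 0.0355 by edgeR) and in a fit of all 14 libraries (-1.68, adjusted p = 0.0304 by edgeR). Ctrl mice, without the transgene, and their KO mice, with it, overlapped, with 2.87 and 1.14 CPM against 1.50 and 2.70 CPM, a log2 fold change of 0.08 (SE 0.74, adjusted p = 0.988 by edgeR) that was -0.06 with library size alone and -0.55 scaled to the RPE markers. Where both groups carry the Best1-Cre transgene, in the CreCtrl set, it had 2.60 and 3.26 CPM in CreCtrl and 1.39 and 1.32 CPM in KO libraries, a log2 fold change of -1.11 (SE 0.43, adjusted p = 0.105 by edgeR). Over all 14 libraries Best1 was lower in KO by a log2 fold change of -1.04 (SE 0.38, adjusted p = 0.0411 by edgeR), a call that was lost without any 1 of 12 of the 14 libraries (adjusted p = 0.0502 to 0.0929) and without a filter on low counts (0.181). Best1 thus had fewer reads in the KO libraries of the WT set, whose 10 RPE markers were all higher than in WT, and scaled to those markers its log2 fold change there was -3.70 (adjusted p = 0.000678 by edgeR). The 8 markers of myeloid cells summed to 1399 to 2469 CPM in WT and 810 to 948 CPM in their KO libraries. In the KO libraries of the Ctrl set they summed to 848 and 2472 CPM, beside 1.50 and 2.70 CPM of Best1. Of the 8 markers, 7 were called lower and 1 higher in KO in the WT set, with a median log2 fold change of -3.91. Over all sets 6 were called lower and 1 higher, the last being Csf1r (0.48, adjusted p = 0.00306 by edgeR). Their sum therefore does not follow every marker. The part of myeloid cells in the level of Best1 was not tested.

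Clcn2 (ENSMUSG00000022843, chromosome 16, 20702964 to 20717746, minus strand) encodes a voltage-gated chloride channel, and mice without it lose their photoreceptors. It had 342, 209 and 247 CPM in WT and 360, 351 and 419 CPM in their KO libraries. The 3 KO values were the highest of the 6, with a log2 fold change of 0.50 (SE 0.19, adjusted p = 0.0709 by edgeR) that was called by DESeq2 (0.50, adjusted p = 0.0218) and without WT replicate 1 (0.73, adjusted p = 0.00779 by edgeR). The order was opposite in the CreCtrl set, with 390 and 474 CPM in CreCtrl and 331 and 294 CPM in KO libraries and a log2 fold change of -0.47 (SE 0.19, adjusted p = 0.113 by edgeR). DESeq2 called this as well (-0.46, adjusted p = 0.0385), as did edgeR with library size alone (-0.69, adjusted p = 0.0467). Ctrl libraries had 293 and 156 CPM and their KO libraries 286 and 281 CPM, and the groups overlapped, with a log2 fold change of 0.33 (SE 0.34, adjusted p = 0.861 by edgeR). Among all 6 groups, CreCtrl had the highest mean per kilobase (71.4 CPM) and Ctrl the lowest (38.8 CPM), but their ranges overlapped those of the next groups in the order, the KO mice of the WT set and WT. Scaled to the RPE markers, the log2 fold change was negative in each set, -1.44 (adjusted p = 0.0015 by edgeR), -0.29 (0.558) and -0.92 (0.0299) in the WT, Ctrl and CreCtrl sets, which turns its direction in the first 2.

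Cftr (ENSMUSG00000041301, chromosome 6, 18170687 to 18322768, plus strand), the cyclic AMP-regulated chloride channel that is mutated in cystic fibrosis, was close to the limit of detection. It had 0 counts in 7 of the 14 libraries and at most 16 counts in any. The WT libraries had 16, 0 and 0 counts and their KO libraries 0, 15 and 0. Ctrl had 16 and 13 counts against 0 and 0 in KO, and CreCtrl had 10 and 0 against 5 and 2 in KO. A count of 0 allows up to 3 counts, or 0.166 to 0.305 CPM in these libraries, for counting error only. In the Ctrl set both KO libraries thus lay below both controls by more than this error, while the groups overlapped in the WT and CreCtrl sets. Mice of 1 group also differed as much, with 16 and 0 counts in WT. The KO effect on Cftr was tested in no set by itself, and counts of this kind do not settle a difference between the groups.

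Slc12a2 (ENSMUSG00000024597, chromosome 18, 57878678 to 57946821, plus strand) encodes the sodium-potassium-chloride cotransporter that carries chloride into the cell. It had 195, 181 and 169 CPM in WT and 163, 161 and 201 CPM in their KO libraries, with overlapping groups. The log2 fold change was -0.05 (SE 0.13, adjusted p = 0.794 by edgeR), with a 95% interval from -0.36 to 0.25 that leaves room for small differences only, and was 0.03 without that filter. For the Ctrl set, 217 and 275 CPM in Ctrl stood against 289 and 194 CPM in KO libraries, a log2 fold change of -0.03 (SE 0.29, adjusted p = 0.988 by edgeR) with a wider interval, from -0.75 to 0.69. For the CreCtrl set, 200 and 172 CPM in CreCtrl stood below 243 and 352 CPM in KO libraries, a log2 fold change of 0.68 (SE 0.22, adjusted p = 0.0714 by edgeR, 0.0117 with DESeq2). Relative to the RPE markers its log2 fold change was -1.97 (adjusted p = 8.47e-05 by edgeR) for the WT set, -0.64 (0.21) for the Ctrl set and 0.23 (0.338) for CreCtrl. A gene with a flat share of all reads thus became a called one on that scale.

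Of the carriers and kinases that work with Slc12a2, Stk39, a kinase that activates it, rose in KO in the WT set (log2 fold change 0.78, adjusted p = 0.0171 by edgeR) and in the CreCtrl set (0.84, adjusted p = 0.0326 by edgeR), and had 0.24 (0.823) in the Ctrl set. Its call in the WT set was lost with library size alone (adjusted p = 0.0677 by edgeR), and that in the CreCtrl set without CreCtrl replicate 2 (0.0813) or KO-CreCtrl replicate 2 (0.153). Wnk1, which acts upstream of Stk39, fell by 0.89 (adjusted p = 0.00101 by edgeR) in the WT set and had log2 fold changes of -0.50 and -0.07 in the Ctrl and CreCtrl sets. Oxsr1, the kinase closest to Stk39, had -0.27, -0.51 and -0.09, none of which passed. Of the potassium-chloride cotransporters, which let chloride out, Slc12a7 fell by 0.46 (adjusted p = 0.0491 by edgeR) in the WT set, a call that was lost without any 1 of 5 of the 6 libraries. Slc12a4 had 0.11, 0.31 and 0.30 in the 3 sets, with no call and with -0.14 in the WT set under library size alone.

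Aqp1 (ENSMUSG00000004655, chromosome 6, 55336432 to 55348555, plus strand) encodes a water channel found in many fluid-moving epithelia and also in endothelium and red cells. It had 60.7, 116 and 99.8 CPM in WT and 22.6, 10.6 and 5.88 CPM in their KO libraries. Every KO library lay below every WT library, and Aqp1 fell by 2.82 on the log2 scale (SE 0.46, adjusted p = 0.00185 by edgeR), to 0.141 of the WT level. The Ctrl set held 27.3 and 98.1 CPM in Ctrl and 5.89 and 8.67 CPM in KO libraries, a log2 fold change of -3.11 (SE 0.66, adjusted p = 0.13, unadjusted p = 0.00387 by edgeR). That value was called by DESeq2 (-3.11, adjusted p = 5.31e-05) and in the fit of all 14 libraries (adjusted p = 0.0191 by edgeR), and it was -3.74 without Ctrl replicate 1 and -1.90 without Ctrl replicate 2. The CreCtrl set held 43.3 and 30.5 CPM in CreCtrl and 8.35 and 8.28 CPM in KO libraries, and Aqp1 fell by 2.15 (SE 0.22, adjusted p = 0.00406 by edgeR), a call lost in the fit of all 14 libraries (-2.12, adjusted p = 0.0649). Over all 14 libraries it fell by 2.67 (SE 0.34, adjusted p = 9.67e-05 by edgeR). Its KO libraries lay below the controls of their set in all 3 sets, and its direction held in each set under every scaling tried, with log2 fold changes of -4.68, -3.72 and -2.58 relative to the RPE markers.

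Some lists of markers of other cells had negative medians in all 3 sets, as Aqp1 had negative values, and others did not. The fibroblast list had medians of -4.30, -2.97 and -3.41 on the log2 scale in the WT, Ctrl and CreCtrl sets, with 9, 0 and 8 of 9 markers called lower. The endothelial list had -2.45, -2.11 and -2.51, with 7, 0 and 7 of 8 called lower, and the erythrocyte list -1.71, -0.66 and -3.24, with 5, 0 and 2 of 5 called lower. The pericyte and smooth muscle list had -1.05, -2.99 and -2.84, with 2, 0 and 2 of 5 called lower. The myeloid list had -3.91, 0.26 and -2.99, with 7, 0 and 7 of 8 called lower and 1 called higher in the WT set, and the rod list 0.51, 0.68 and -3.13, with 0, 0 and 10 of 10 called lower. The melanocyte and Schwann cell list had -0.14, -0.01 and -0.38, with 1, 0 and 1 of the 4 tested called lower and 1 higher in the WT set, and its Gjc3 was at 0 in the KO libraries of the Ctrl set. The part of these cells in the level of Aqp1 was not tested. The 3 genes whose log2 CPM ran most like Aqp1 over the 14 libraries, among 17661 genes, were Mylk, the kinase of the myosin light chain (Pearson r = 0.976), Plk2 (0.969) and Fosl2 (0.969).

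**Figure D3:**
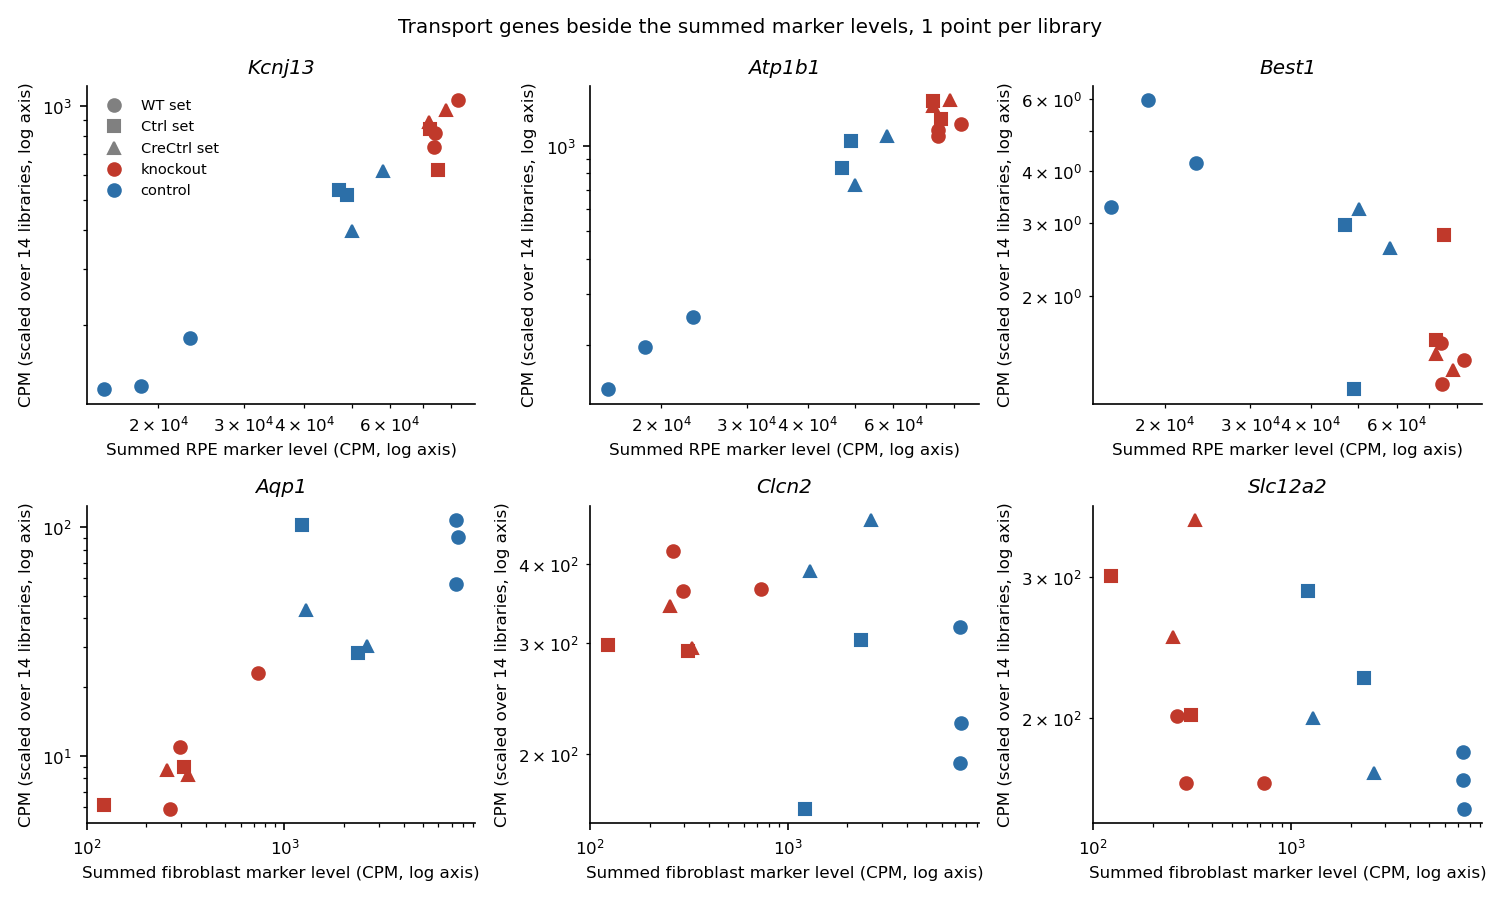
Level of 6 transport genes (vertical axis) beside the summed RPE markers (upper row) or the summed fibroblast markers (lower row) of the same library, in CPM scaled over the 14 libraries, on log axes. Each point is a library, red for KO and blue for control, with a shape for each set. WT libraries sit at 15506 to 23252 CPM of RPE markers with low Kcnj13 and Atp1b1, and KO libraries at 123 to 732 CPM of fibroblast markers with low Aqp1.

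Whether the KO effect differed between sets was tested itself, in 1 fit of all 14 libraries. Of the 7 genes, 2 were called in the WT set against the Ctrl set, beside 5.15% of all 17662 genes (4.34% higher and 0.810% lower), and the same 2 in the WT set against the CreCtrl set, beside 1.49% of all genes (1.12% higher and 0.374% lower). They were Kcnj13, with a KO effect larger in the WT set by 2.11 (SE 0.34, adjusted p = 0.0103 by edgeR) and 1.71 (SE 0.34, adjusted p = 0.0304), and Atp1b1, larger by 2.02 (SE 0.34, adjusted p = 0.0112) and 1.89 (SE 0.34, adjusted p = 0.024), on the log2 scale. The WT libraries were below the Ctrl and CreCtrl libraries in both genes. The mean level of Kcnj13 per kilobase was 114 CPM in WT, 416 in Ctrl and 400 in CreCtrl, against 682, 577 and 732 in the KO mice of these sets. That of Atp1b1 was 63.4 CPM in WT, 304 in Ctrl and 293 in CreCtrl, against 368, 434 and 457 in KO mice, where the KO libraries of the WT set lay below those of the other two sets. Without KO-Ctrl replicate 2 both differences to the Ctrl set missed the threshold. Those to the CreCtrl set missed it without any 1 of 7 of the 14 libraries for Kcnj13 and of 6 of the 14 for Atp1b1. With 1 library left out, the differences to the CreCtrl set ran from 1.36 to 2.00 for Kcnj13 and from 1.58 to 2.16 for Atp1b1. The RPE markers differed in the same way, with a median difference of 1.29 and 1.24, and 4 of 10 called larger in the WT set in each test. For Clcn2 the WT and CreCtrl sets differed by 1.07 (SE 0.35, adjusted p = 0.158 by edgeR). Best1, Slc12a2, Aqp1 and Cftr were not called in these tests, and for the Ctrl against the CreCtrl set 0 of 7 genes was called, beside 0% of all genes, while 1 of the 7 (Slc12a2) and 1545 of all genes had an unadjusted p under 0.05.

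Levels of Kcnj13 and Atp1b1 ran nearly in parallel over the 14 libraries (Pearson r = 0.98 of log2 CPM), and that of Best1 against them (-0.83 and -0.77). The libraries share sets and fall apart by group, so these values describe the samples and carry no test. The genes most like Atp1b1 were Cltrn (0.996), Rgr (0.992), which is itself among the 10 RPE markers, and Ermn (0.992), and those most like Kcnj13 were Kbtbd4 (0.989), Ghitm (0.988) and Gpr143 (0.988), the last encoding a receptor of pigment cells. Clcn2 ran with Col9a3 (0.98), Tspoap1 (0.949) and Ccdc157 (0.948), and Slc12a2 with Bmpr1a (0.951), Itch (0.945) and Mib1 (0.944). Best1 ran with Ear2 (0.949), Gm11427 (0.937) and Hpgd (0.934). At the counts of Cftr a likeness is no finding, and the highest was 0.848, to Gm26794.

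Beyond these genes, a list of 110 other ion and water transport genes in 6 roles was read in the same fits. In the WT set 35 of the 76 tested were called, 16 higher and 19 lower in KO, which is 46.1% beside 35.1% of all genes, with a median log2 fold change of 0.03 against -0.08 over all genes. In the CreCtrl set 18 of 82 were called, 5 higher and 13 lower, which is 22.0% beside 15.8%, with medians of 0.06 and -0.02. In the Ctrl set 0 of 83 were called by edgeR and 13 by DESeq2 (beside 0% and 7.27% of all genes), with medians of 0.02 and 0.01. Of the 74 listed genes tested in both the WT and CreCtrl sets, 14 were called in the same direction (4 higher and 10 lower), which are 14 of 35 calls in the WT set and 14 of 17 (82.4%) in the CreCtrl set, and 0 in opposite directions. Over all 14984 genes tested in both, 1788 calls were shared in direction, which are 33.5% of 5343 and 72.4% of 2470 calls, and 4 were opposite. Of the CreCtrl calls named in what follows or above, those of Ano1, Lrrc8c, Clcn3, Kcnj2, Kcnk6, Stk39, Fxyd1, Fxyd6 and Slc8b1 were lost in the fit of all 14 libraries (adjusted p = 0.0525 to 0.119 by edgeR), and those of Kcne4 and Fxyd5 were not.

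**Figure D4:**
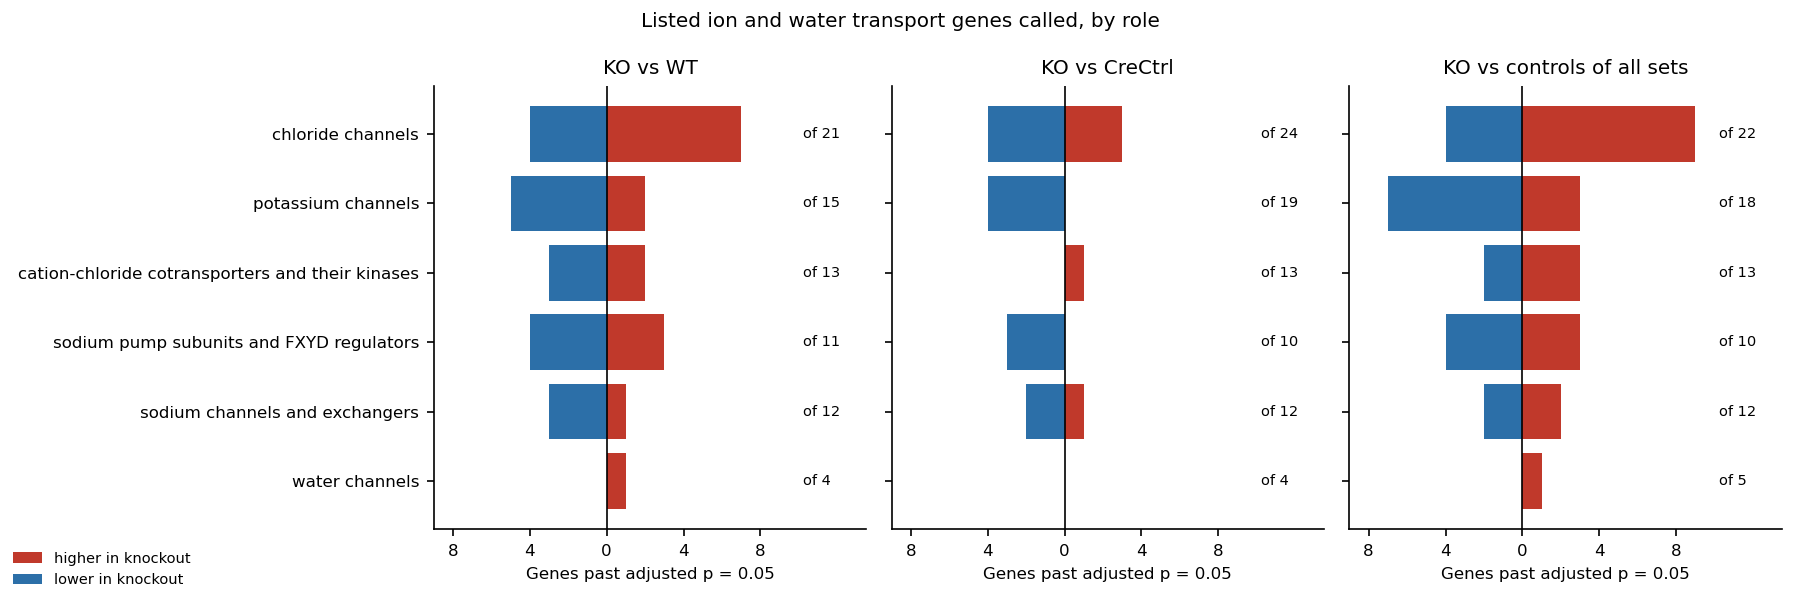
Number of listed ion and water transport genes called at an adjusted p under 0.05 (horizontal axis), to the right where higher and to the left where lower in KO, for each of 6 roles in the WT set, the CreCtrl set and over all sets. The number tested stands at the right of each bar. In the WT set 7 of 21 chloride channel genes were higher and 4 lower, and among the potassium channels 2 of 15 were higher and 5 lower.

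Chloride channel genes went both ways. In the WT set 7 of 21 (33.3%) were higher and 4 (19.0%) lower in KO, beside 16.1% and 19.0% of all genes, and in the CreCtrl set 3 of 24 (12.5%) and 4 (16.7%), beside 3.60% and 12.2%. Clcn3, an endosomal chloride-proton exchanger, had 44.8 ± 7.05 CPM in WT and 153 ± 27.9 CPM in KO libraries (SD, n = 3 each), a log2 fold change of 1.77 (adjusted p = 0.000154 by edgeR), and rose by 0.91 (adjusted p = 0.0388 by edgeR) in the CreCtrl set, a call lost without CreCtrl replicate 2 (0.0835) or KO-CreCtrl replicate 2 (0.162). Ano1, a calcium-activated chloride channel of smooth muscle and secretory cells, fell from 116 ± 48.6 to 9.49 ± 0.976 CPM (SD, n = 3 each), by 3.61 (adjusted p = 6.87e-05 by edgeR), and by 1.92 (adjusted p = 0.00799 by edgeR) in the CreCtrl set. Lrrc8c, a subunit of volume-regulated anion channels, fell by 2.38 and 2.56 (adjusted p = 0.00798 and 0.014 by edgeR). In the Ctrl set these 3 had log2 fold changes of 0.16, -1.26 and -2.31, without a call. Best2, the closest relative of Best1 here, had -1.52 (SE 1.57) and 1.82 (SE 0.71) in the WT and CreCtrl sets and passed in neither, and the first became 1.94 without WT replicate 1.

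Of the potassium channel genes, 2 of 15 (13.3%) were higher and 5 (33.3%) lower in the WT set, beside 16.1% and 19.0% of all genes, and 0 of 19 were higher and 4 (21.1%) lower in the CreCtrl set, beside 3.60% and 12.2%. Kcnj2, an inward rectifier of muscle and vessels, had 12.6 ± 1.44 CPM in WT and 0.493 ± 0.446 CPM in KO libraries (SD, n = 3 each), a log2 fold change of -4.66 (adjusted p = 0.00498 by edgeR). Kcne4, an accessory subunit, and Kcnk6, a background channel, had -4.44 (adjusted p = 0.000367 by edgeR) and -3.96 (adjusted p = 0.00855). Those of the CreCtrl set were -4.07, -4.69 and -2.38 (adjusted p = 0.0143, 0.00721 and 0.0278 by edgeR), and the call of Kcnk6 was lost without CreCtrl replicate 2 (0.127) or KO-CreCtrl replicate 2 (0.102). In the Ctrl set their log2 fold changes were -0.51, -3.48 and -2.16, without a call. Kcnj10, the glial inward rectifier, had 2.60 ± 1.14 CPM in WT and 0.449 ± 0.413 CPM in KO libraries (SD, n = 3 each) with no call. Kcnq5, a potassium channel also described in RPE, had few reads and was called in no set, with 1.35 ± 1.22 CPM in WT and 1.03 ± 1.17 CPM in KO libraries (SD, n = 3 each). Its level was 3.63 ± 0.0921 CPM in Ctrl and 0.438 ± 0.620 CPM in their KO libraries (SD, n = 2 each), a log2 fold change of -3.05 (adjusted p = 0.492 by edgeR, 0.0115 without a filter on low counts), and that in the CreCtrl set was 1.07 (adjusted p = 0.425), which became 4.19 (0.0345) without CreCtrl replicate 1.

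The remaining roles are read against the same shares of all genes, 16.1% higher and 19.0% lower in the WT set and 3.60% and 12.2% in the CreCtrl set. Of the cotransporters and kinases, 2 of 13 (15.4%) were higher and 3 (23.1%) lower in the WT set, and 1 of 13 (7.69%) higher and 0 lower in the CreCtrl set. Of the pump subunits and FXYD regulators it was 3 (27.3%) and 4 (36.4%) of 11, and 0 and 3 (30.0%) of 10. Sodium channels and exchangers held 1 (8.33%) higher and 3 (25.0%) lower of 12 in the WT set and 1 (8.33%) and 2 (16.7%) of 12 in the CreCtrl set. With so few genes in a role, 1 call moves a share far. Slc8b1, the mitochondrial sodium-calcium exchanger, fell by 1.83 and 1.27 (adjusted p = 0.000617 and 0.0333 by edgeR), and the CreCtrl call was lost without CreCtrl replicate 2 (0.0958) or KO-CreCtrl replicate 2 (0.131). Water channels had 4 genes tested in each of these sets, with 1 and 0 called. Aqp11, an aquaporin of internal membranes, rose by 1.70 (adjusted p = 0.00514 by edgeR) in the WT set and had 0.32 and 0.37 in the Ctrl and CreCtrl sets, and Aqp4, the glial aquaporin, passed in no set, with -0.61, -2.88 and 1.08. Among the water channels, Aqp1 was thus the one called lower in KO, in the WT and CreCtrl sets. In the Ctrl set 0 of 5 listed water channels tested was called, with a median log2 fold change of -2.88 and 2 unadjusted p under 0.05 by edgeR. Of the 11 listed, 3 had every KO library below every Ctrl library there, and 2 had every KO library above. Over all 110 listed genes it was 32 below and 22 above. The share of all genes split in this way was not counted, so these numbers do not single out the water channels.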

How the data were processed

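RPE cells of 14 mice were released with enzymes, and stranded poly(A) libraries were sequenced with paired ends. The authors aligned reads to GRCm38 with STAR and deposited raw counts per Ensembl gene. The submitters' processing notes name STAR 2.5.2, HTSeq 0.11.2 and Cufflinks 2.1.1 without roles. The strand setting and annotation release are not given in the sources used here. Names, positions and exon lengths came from GENCODE M21, which held 42329 of the 42687 genes.

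Groups came from the sample titles. The KO samples share 1 genotype label, and their set was read from the style of the titles and the prefix of the library names. KO was compared with the controls of its own set, as in the study, by edgeR 4.0.16 (R 4.3.3, limma 3.58.1) with the quasi-likelihood test, TMM normalization, filterByExpr and Benjamini-Hochberg adjustment, without covariates. All 14 libraries were also fitted with the set as a term, and as 6 groups for differences between sets. CPM used TMM factors computed within each set, and those per kilobase, summed markers and likeness (log2 CPM, prior count 2) over 14 libraries. Tests were first checked on simulated counts, with few genes changed and the same spread for every gene. That setting differs from these data, so it does not give the error rates here. Alternatives were DESeq2 1.42.0, other scalings, no filter, a block and leaving out each library. No libraries of the same group were duplicates (chi-square per gene 18.7 to 124), and libraries of different groups were not compared in this way.

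The 7 genes, the lists and the tests were chosen with earlier results of these data known. All 7 genes are named. Of the 110 listed genes, those named were called in the same direction in the WT and CreCtrl sets (at most 3 in each role, by size) or are partners of the 7. Promoter windows came from RefSeq, and 6 of 7 genes were matched and searched. Counting error limits genes with few reads. A few listed genes are not reported here.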

Additional observations from a re-analysis of the deposited data

Results flagged for a closer look

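Among the 7 KO libraries, which come from 3 sets, 3 single values stood apart from the rest in CPM scaled over the 14 libraries. They were flagged by their gap to the next library, and how often chance would flag such a value was not tested. Best1 was 2.80 CPM in KO-Ctrl replicate 2, against 1.57 CPM in the next library. The myeloid markers summed to 2472 CPM in KO-Ctrl replicate 2, the highest of the 14 libraries. WT replicate 2 was almost level with it at 2469 CPM and had 5.94 CPM of Best1. Cftr was 1.05 CPM in KO-WT replicate 2, against 0.207 CPM in the next. Aqp1 was 23.0 CPM in KO-WT replicate 1, against 11.0 CPM in the next, and this library also held the most fibroblast marker reads of the 7 KO libraries (732 CPM).

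The KO effect on Kcnj13 was larger in the WT set than in the Ctrl set by 2.11 and than in the CreCtrl set by 1.71 on the log2 scale, and that on Atp1b1 by 2.02 and 1.89, by edgeR's test of the difference itself. In the same tests the RPE markers differed by medians of 1.29 and 1.24, and the part of this shift in the 2 genes was not tested further than by the scaling to these markers.

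For Clcn2 every KO library lay above every WT library (log2 fold change 0.50) and every KO library below every CreCtrl library (-0.47). The test of that difference gave 1.07 with an adjusted p of 0.158 from edgeR, and scaling by the RPE markers made both values negative.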

How the results depend on the processing

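Of 1807 recomputed values of single genes, 1605 kept their direction and their side of the threshold, 62 passed it newly, 85 no longer passed and 55 changed sign, with the cause not tested. Calls among the 7 genes were 3 in the WT set (5 with DESeq2 and 5 in 1 fit of all 14 libraries), 0 in the Ctrl set (1 without a filter, with DESeq2 and in that fit) and 1 in the CreCtrl set (2 with library size alone, 3 without a filter, 5 with DESeq2, 0 in that fit). Calls in the list of 110 were 0 in the Ctrl set (17 without a filter, 13 with DESeq2, 8 in that fit) and 18 in the CreCtrl set (30 without a filter, 2 in that fit). Calls among all genes were 0 in the Ctrl set (1658, 1111 and 648 in the same order) and 2529 in the CreCtrl set (4793, 4096 and 704). Leaving out 1 library gave 0 to 1 of the 7 genes, 0 to 4 listed and 0 to 512 of all genes in the Ctrl set (highest without Ctrl replicate 1), and 1 to 5, 7 to 33 and 1147 to 5157 in the CreCtrl set (highest without CreCtrl replicate 1, lowest without CreCtrl replicate 2 for the list and all genes). The 2 genes called in the differences between sets became 0 to 2 in both tests.

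The deviations of same-numbered libraries from their group means had correlations of -0.0181, 0.0727 and 0.185 in the WT set. Pairs of unlike number ran from -0.16 to 0.0726 there. The values were -0.00592 for Ctrl and 0.132 for CreCtrl, where 2 mice a group give 1 value up to its sign. Whether the number marks a pair of mice cannot be told from these values. With the replicate number as a block, 2 listed and 113 of all genes were called in the Ctrl set, and 2 of the 7 genes, 28 listed and 3824 of all genes in the CreCtrl set, and Fxyd5 became -0.73 in the Ctrl set. The block also ended the call of Best1 over all sets (adjusted p = 0.103) and brought Kcnj13 past the threshold in the CreCtrl set (adjusted p = 0.0491, both from edgeR).

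Library size alone shifted the median of all genes from -0.08, 0.01, -0.02 and 0.01 to -0.32, -0.11, -0.24 and -0.24 in the WT, Ctrl and CreCtrl sets and over all sets. The share of calls that were higher in KO moved from 45.9% to 30.3% in the WT set, 22.7% to 7.36% in the CreCtrl set and 51.7% to 25.7% over all sets, and for the list from 27.8% to 16.7% in the CreCtrl set and 52.5% to 28.1% over all sets. Under it the sign changed for Slc12a4 (-0.14) in the WT set, for Best1 (-0.06) and Fxyd5 (0) in the Ctrl set, for Atp1b3 (-0.12) and Slc12a7 (-0.19) in the CreCtrl set, for Clcn2 (-0.03) and Slc12a2 (-0.04) over all sets, and for the differences between sets of Slc12a2 (-0.16, and -0.03 with RLE) in WT against Ctrl and of Atp1b1 (0.01) in Ctrl against CreCtrl. Slc12a2 in the WT set was 0.03 without a filter and 0.08 in the fit of all libraries. Scaling to the RPE markers turned Clcn2 (-1.44) in the WT set, Best1 (-0.55), Clcn2 (-0.29), Kcnj13 (-0.14) and Atp1b1 (-0.10) in the Ctrl set, and Clcn2 (-0.96) and Slc12a2 (-0.97) over all sets, where Kcnj13 (0.32) and Atp1b1 (0.26) no longer passed.

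Leaving out 1 library turned these log2 fold changes, none of them called. In the WT set Slc12a2 ran from -0.10 to 0.08, Kcnq5 from -1.70 to 0.30, Best2 from -2.07 to 1.94 and Aqp4 from -1.11 to 1.59. In the Ctrl set Best1 ran from -0.44 to 0.89, Clcn2 from -0.05 to 0.86, Slc12a2 from -0.35 to 0.23, Ano1 from -1.93 to 0.01, Clcn3 from -0.15 to 0.50, Kcnj2 from -1.98 to 0.19, Fxyd5 from -2.62 to 0.99, Slc12a7 from -0.10 to 0.07 and Kcnj10 from -1.13 to 0.32. In the CreCtrl set Slc12a7 ran from -0.09 to 0.18, Wnk1 from -0.15 to 0.04 and Oxsr1 from -0.17 to 0.01, and over all sets Best2 ran from -1.65 to 0.51 and Aqp4 from -1.07 to 0.15. Of the differences between sets, those of WT against Ctrl ran from -0.19 to 0.61 for Clcn2, -0.15 to 0.45 for Slc12a2 and -0.84 to 1.10 for Aqp1, and those of Ctrl against CreCtrl from -0.46 to 0.12 for Atp1b1 and -1.65 to 0.25 for Aqp1. The low counts of Best1 and Cftr limit what could be detected for them, and with 2 mice a group a library left out leaves 1 sample, which is taken to vary like the other group.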
